A study of Mus musculus with 4 samples.

Results

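The Ifi200 family is a group of interferon-inducible mouse genes that lie side by side on chromosome 1 and encode proteins with a HIN domain, a fold that binds double-stranded DNA. The 9 members described here are Ifi203, Ifi204, Ifi205, Ifi207, Ifi209, Ifi211, Ifi213, Mndal and Aim2. They were chosen by name among the 32285 genes of the count matrices, and all 9 were detected. For each of them the raw UMI counts (unique molecular identifiers, which count each captured transcript once) were summed over the cells of a class in each library.

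The data came from single-cell RNA-seq of mice carrying MA9 leukaemia, which is formed by blood progenitors transformed with the MLL-AF9 fusion gene. The MA9 cells also carried luciferase and a doxycycline-inducible hairpin, either against Prmt9 (shPrmt9) or a control hairpin (Ctrl), and were injected into sublethally irradiated wild-type B6 recipients. All mice drank doxycycline for 7 days, the Ctrl mice included. The strain was C57BL/6J and the mice were 6-8 weeks old. Unsorted cells of bone marrow (BM) and spleen, per the paper from 1 representative mouse of each kind, gave 4 libraries. They are named by tissue and hairpin (BM-Ctrl, Spleen-Ctrl, BM-shPrmt9, Spleen-shPrmt9). The sex-linked RNA given below is at odds with both tissues of a kind coming from 1 mouse. The hairpin was carried by the transplanted leukaemia alone, so by design the normal T, B and myeloid cells of the mouse were not its target. Whether all cells gated here as myeloid came from the recipient was not tested.

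HIN domains hold DNA without reading its sequence. A pyrin domain at the other end of many of these proteins lets them join further pyrin proteins. Aim2 is the best understood member: on meeting DNA in the cytosol it recruits the adaptor Pycard (ASC) and caspase-1, forming an inflammasome that matures interleukin-1β and opens the pore protein gasdermin D. Ifi204 encodes p204, which has been tied to DNA sensing through Sting1 and to macrophage differentiation. Ifi205 has been linked to the control of Pycard expression, and Mndal and Ifi203 belong to the nuclear members. Less is known of Ifi207, Ifi209, Ifi211 and Ifi213. Type I interferon is the usual inducer of the cluster.

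In the GENCODE annotation of GRCm38 the cluster runs on chromosome 1 from Aim2 (ENSMUSG00000037860.15, 173350879 to 173466040, plus strand) to Ifi205 (ENSMUSG00000054203.7, 174011998 to 174031810, minus strand). Ifi209 (173630917 to 173647928) shares the strand of Aim2, and the other 7 members are on the minus strand. Between these ends lie Ifi213 at 173566283 to 173599274, Ifi207 at 173723427 to 173741747 and Ifi204 at 173747293 to 173766943. Mndal spans 173849126 to 173942491, and Ifi211 (173896345 to 173913046) and Ifi203 (173920407 to 173942672) overlap it on the same strand. Reads near the ends of these nested genes can be divided between them by the counting, so their separate counts are uncertain. Sequence sharing adds to that for some members: of the 100-base windows in the last 500 bases of their transcripts, 57.9% were found again in another gene for Ifi205 and for Ifi211, and 57.6% for Ifi209, the last of these in Ifi214. The shares were 5.24% for Ifi213 and 3.11% for Mndal, and 0% for Ifi203, Ifi204, Ifi207 and Aim2.

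The promoters are shown because several members were higher together in shPrmt9 cells, and the letters searched for, GAAANNGAAA on either strand, are the core of the element that interferon-activated factors bind. In windows from 250 bases before to 50 bases after the start of each gene (RefSeq, GRCm38.p6), 7 of the 10 windows of the members held it, belonging to 6 of the 8 members that had an entry. Ifi204 had none in the table. Over all promoters of the same length the share was 1131 of 32851, or 3.44%, and over those of listed interferon-stimulated genes outside the family it was 24 of 37, or 64.9%. The windows of Aim2 and Ifi209 did not hold these letters. Each line gives 40 bases of the gene's own (minus) strand, 5′ to 3′, with the motif in capitals.
Ifi203, chr1:173942503-173942542: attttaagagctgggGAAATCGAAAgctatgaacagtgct
Mndal, chr1:173880199-173880238: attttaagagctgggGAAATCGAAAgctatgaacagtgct
Ifi213, chr1:173599321-173599360: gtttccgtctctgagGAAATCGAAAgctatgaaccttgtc
Ifi207, chr1:173741826-173741865: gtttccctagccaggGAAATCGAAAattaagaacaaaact
Ifi211, chr1:173913059-173913098: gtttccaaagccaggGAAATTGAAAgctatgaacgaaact
Ifi205, chr1:174031865-174031904: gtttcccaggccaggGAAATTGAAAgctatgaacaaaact
The lines of Ifi203 and Mndal are the same letters, and RefSeq starts Mndal inside the span that GENCODE gives it. The capitals of Ifi211 and Ifi205 are the same, and those of Ifi203, Mndal, Ifi213 and Ifi207 are the same. A match describes the letters of the window and is not a binding site. Whether these letters bear on the ratios of the members was not tested.

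**Figure D1:**
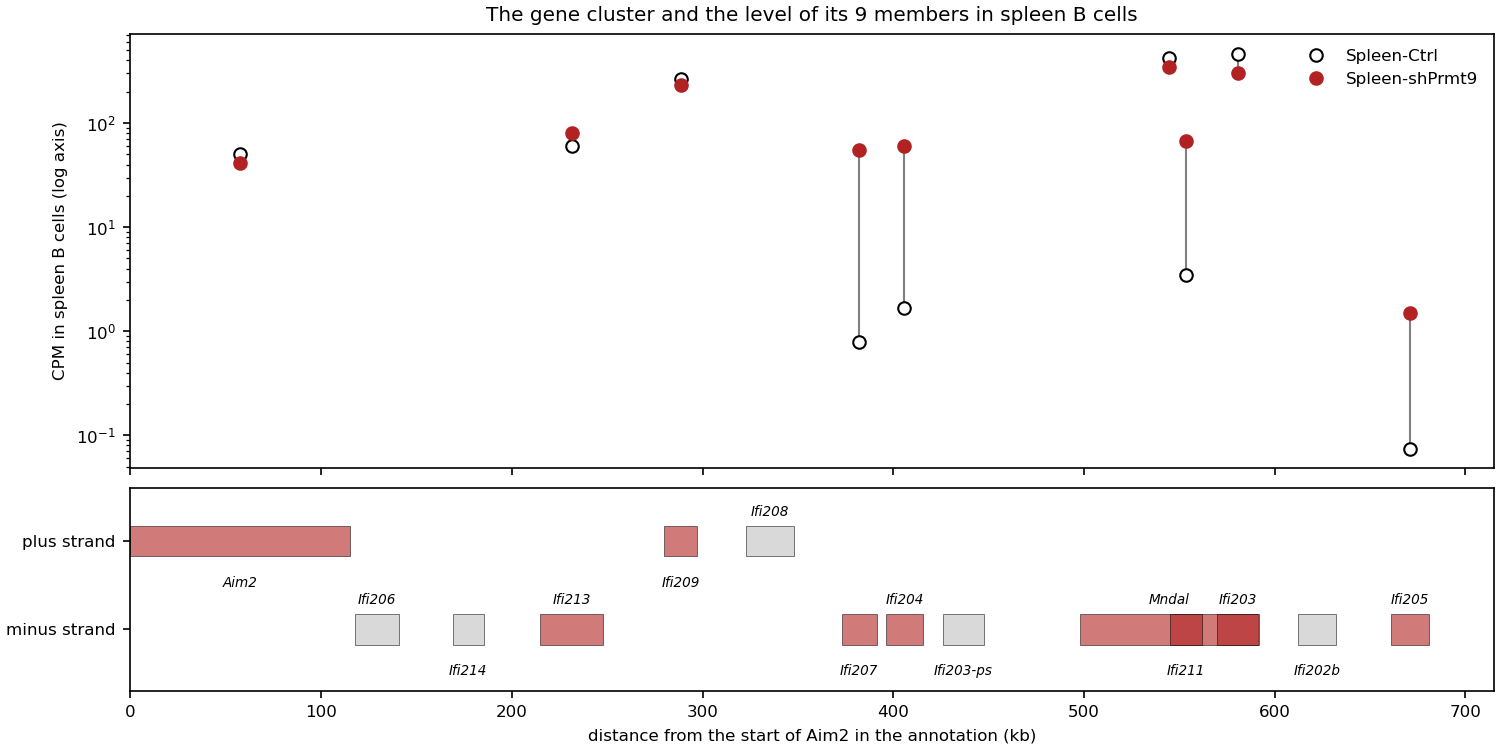
The upper panel plots the level of each member in spleen B cells (CPM, log axis) against the distance of its middle from the start of Aim2 in kb, with open circles for Spleen-Ctrl and filled circles for Spleen-shPrmt9. The lower panel draws the genes to scale by strand, members in red and the other genes of the cluster in grey. Ifi207, Ifi204, Ifi211 and Ifi205 lay far apart in the 2 libraries (for Ifi207, 0.782 and 55.0 CPM), while their neighbours Mndal, Ifi203 and Ifi209 were high in both.

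The 4 libraries held 8648 to 11315 cell barcodes and 84009744 to 188030429 UMIs, and between 15 and 35 barcodes were shared by any pair of them, at most 0.405% of the smaller library. Cells were assigned to 15 classes by marker genes, and 229 to 636 cells per library that met the gates of several classes were left out. A class was compared between Ctrl and shPrmt9 where both libraries of a tissue held at least 20 of its cells. In the T, B and natural killer (NK) classes all gate markers and all check markers were above the level of the other cells, and in MA9 cells all 6 gate markers and 4 to 5 of 6 check markers were, with Cd34 at 0 in Spleen-Ctrl. The spleen conventional DC class (20 and 21 cells) had Cd209a, Clec10a and Itgax at 0 in both libraries. Sex-linked RNA set the libraries apart: 4 Y-linked genes summed to 211 CPM (Spleen-Ctrl) and 150.0 CPM (Spleen-shPrmt9) but to 1 UMI in BM-Ctrl and 2 UMIs in BM-shPrmt9. CPM is the count per 1000000 UMIs of the same cells. Within the spleen libraries the T cells held 216 and 218 CPM of Y-linked RNA and the MA9 cells 9.90 and 10.3 CPM. Xist, the RNA of the inactive X chromosome, was at 313 CPM in T cells of BM-Ctrl and 549 CPM in those of BM-shPrmt9, and in bone marrow monocytes it was at 2.55 and 616 CPM. In MA9 cells it was at 0.140 CPM in BM-Ctrl and 18.6 CPM in BM-shPrmt9. Of the 1512 MA9 cells of BM-shPrmt9, 215 held an Xist UMI. These 215 summed to 109.6 CPM over the family, and the others to 54.1 CPM. In mature neutrophils Xist was at 0.0734 CPM in BM-Ctrl and 112 CPM in BM-shPrmt9. The gated myeloid cells are thus not known to be those of the recipient. T cells held 0 Y-linked UMIs in both bone marrow libraries, against 3819 in Spleen-Ctrl and 6317 in Spleen-shPrmt9. Bone marrow and spleen labelled as 1 group thus differed in sex-linked RNA in a way that is at odds with 1 mouse. Comparisons were made within a tissue only. For some results of MA9, T and B cells, monocytes and mature neutrophils, the value without the Xist-holding cells of BM-shPrmt9 is given. No such value is given for the genes outside the family or for the other bone marrow classes. Among these, Xist was at 1.59 and 139 CPM in immature neutrophils of BM-Ctrl and BM-shPrmt9. It was at 0 and 270.1 CPM in erythroid cells and at 0 and 1204 CPM in basophils. BM-Ctrl was left whole in those values, though its T and B cells held 747 and 309 Xist UMIs. A deeper cell more readily shows an Xist UMI, so this is not a clean split by origin.

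Prmt9, the target of the hairpin, was lower in MA9 cells of shPrmt9, at 984 and 536 UMIs in bone marrow (11.5 and 6.29 CPM, ratio 0.547, interval 0.491–0.608) and at 21 and 6 UMIs in spleen. In spleen T and B cells, which do not carry the hairpin by design, the ratio was 0.593 (0.498–0.705) and 0.699 (0.611–0.798). The interval spanned 1 in T cells (1.19, 0.660–2.13), B cells (1.02, 0.583–1.68), monocytes (1.24, 0.934–1.64) and mature neutrophils (0.907, 0.682–1.21) of bone marrow and in spleen NK cells (1.85, 0.773–4.89), and it lay below 1 in immature neutrophils (0.758, 0.599–0.963). Each interval is an exact 95% interval that covers counting error only, and since each group is 1 library there is no test of Ctrl against shPrmt9.

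Among classes of at least 20 cells, B cells held the most family RNA in the Ctrl libraries. The 9 members summed to 976 CPM (953–999) in B cells of BM-Ctrl and 1271 CPM (1262–1281) in those of Spleen-Ctrl. In BM-Ctrl the order then ran through plasmacytoid DC at 912 CPM (862–963), whose interval overlapped that of B cells, monocytes at 818 CPM, T cells at 520.3 CPM and mature neutrophils at 282 CPM (273–291), which overlapped the 39 NK cells at 263 CPM (217–316), and it ended with MA9 cells at 38.0 CPM, immature neutrophils at 30.4 CPM and erythroid cells at 14.1 CPM. By CPM leukaemia cells were thus near the bottom of the order, and the counting intervals of these last 3 classes did not overlap. CPM is a share of all UMIs, and the erythroid check markers, globins among them, summed to 684550.0 CPM in those erythroid cells. Free RNA was estimated from markers of other lineages in the same cells. Its level was 57.5% of the family sum in immature neutrophils, 55.9% in erythroid cells and 21.0% in MA9 cells. The order of these 3 classes is thus uncertain. In BM-shPrmt9 the monocytes came first, at 1401 CPM (1371–1432), ahead of B cells at 1155, T cells at 783 and mature neutrophils at 694 CPM, with MA9 cells at 62.3 CPM. In Spleen-Ctrl, T cells at 842 CPM followed B cells, and MA9 cells were at 70.1 CPM (56.0–86.7, 32 cells). Spleen-shPrmt9 was led by 26 monocytes at 2887 CPM (2717–3065) and 66 mature neutrophils at 1317 CPM, ahead of B cells at 1188 and T cells at 847 CPM.

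**Figure D2:**
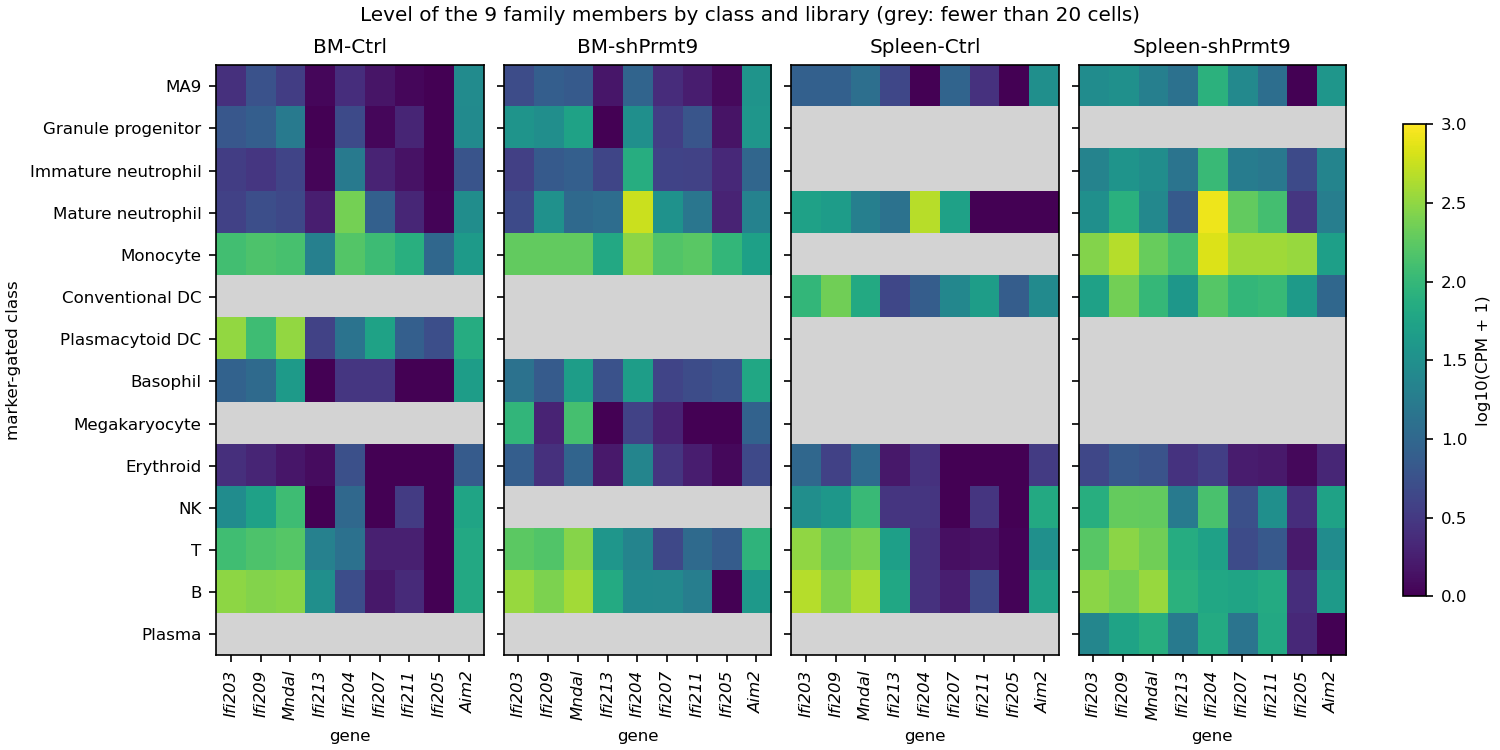
The colour gives the level of each member, as log10(CPM + 1), for each marker-gated class (rows) in each library (panels), and grey rows held fewer than 20 cells. Ifi204 was highest in mature neutrophils and monocytes, Ifi203, Ifi209 and Mndal were high in B cells, plasmacytoid DC, T cells and monocytes, and Aim2 was the brightest member of MA9 cells in both Ctrl libraries.

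The make-up of that sum differed by cell type. Ifi203, Mndal and Ifi209 made up most of it in lymphocytes: in B cells of Spleen-Ctrl, Ifi203 was 36.8%, Mndal 33.3% and Ifi209 20.7% of family UMIs. Mature neutrophils were dominated by Ifi204, at 82.8% in BM-Ctrl and 82.1% in BM-shPrmt9. Aim2 took the largest share in bone marrow MA9 cells, 71.2% in BM-Ctrl and 55.0% in BM-shPrmt9. UMIs at transcript 3′ ends do not scale with gene length, so these shares compare molecules captured, not reads per length.

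**Figure D3:**
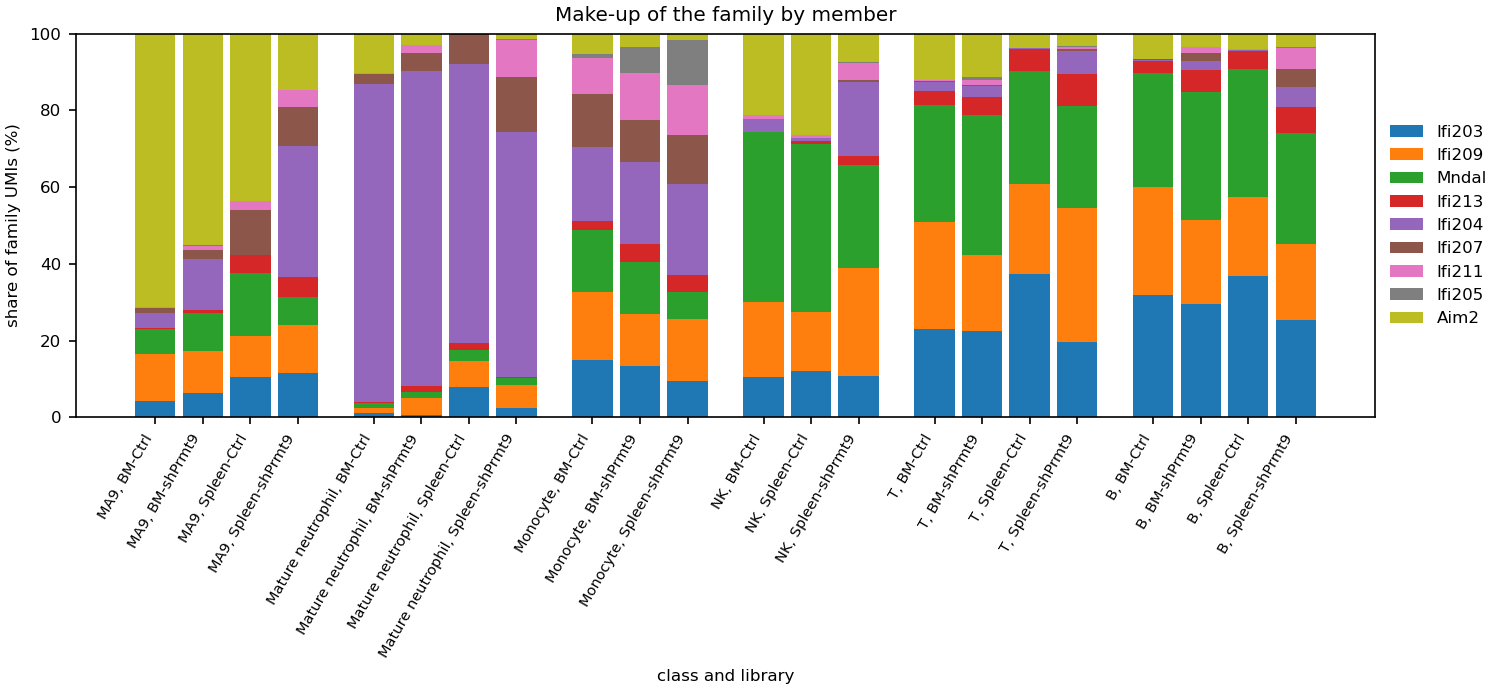
Each bar divides the family UMIs of a class in 1 library (x axis) into the 9 members (colours), as a share in %. Ifi204 fills over 60% of every mature neutrophil bar, and its share of the MA9 bars is larger in BM-shPrmt9 (13.2%) than in BM-Ctrl (3.93%).

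The first comparison asked how many members differed at least 2-fold between shPrmt9 and Ctrl in a class, among those with at least 20 UMIs in the pair of libraries. In bone marrow, 6 of 8 members were at least 2-fold higher in MA9 cells of shPrmt9, where 12.4% of all genes were. Mature neutrophils had 7 of 9 (4.37% of all genes) and immature neutrophils 7 of 9 (4.55%). Both neutrophil classes and the MA9 cells thus had most members past this fold. In BM-Ctrl, however, the free RNA level was at or above the value of Ifi204, Ifi207, Ifi211 and Ifi213 in MA9 cells (up to 223%), of Ifi207, Ifi209, Ifi211, Ifi213 and Mndal in immature neutrophils (101% to 344%) and of Ifi205, Ifi209 and Mndal in mature neutrophils (113% to 178%), so the size of those ratios is uncertain. With free RNA subtracted the count was 6 in MA9 cells and 8 in mature neutrophils. Subtraction leaves little or nothing of those members in BM-Ctrl, so any remainder in BM-shPrmt9 passes the fold. These counts therefore cannot decide whether the members differed. The counts were smaller in B cells, with 4 of 8 (4.07%), and monocytes, with 3 of 9 (6.64%), and in T cells it was 0 of 6 (3.56%). Without the Xist-holding cells of BM-shPrmt9 the count was 2 in MA9 cells, 7 in mature neutrophils, 1 in monocytes, 1 in T cells and 2 in B cells. Of the last 3 classes, 37, 49 and 11 cells were left. No share of all genes is given for these fewer cells, so the counts cannot be set against the shares of the full classes. Erythroid cells had 3 of 4 (20.3%) and basophils 1 of 4 (4.01%).

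In spleen the counts were 5 of 7 in MA9 cells (13.7% of all genes), 4 of 9 in T cells (5.80%), 4 of 9 in B cells (5.33%) and 5 of 7 in NK cells (12.4%). Conventional DC had 4 of 7 (19.4%), mature neutrophils 2 of 5 (9.18%) and erythroid cells 2 of 6 (13.1%). With a stricter gate the MA9 cells of spleen (17 and 45 cells) had 2 members higher and 2 lower. With the gates as set, members at least 2-fold lower were counted in spleen erythroid cells, 3 of 6 beside 18.4% of all genes, and in the 14 other comparisons the number was 0. The share of all genes that were that much lower there was 6.77% in MA9 cells, 3.79% in T cells, 6.27% in B cells, 8.20% in monocytes, 5.40% in immature and 5.24% in mature neutrophils, 1.24% in erythroid cells and 4.28% in basophils of bone marrow. In spleen it was 13.2% in MA9 cells, 8.57% in T cells, 5.06% in NK cells, 13.3% in B cells, 6.56% in conventional DC and 11.9% in mature neutrophils. By member, Ifi211 was past the fold upward in 10 of 10 comparisons, Ifi207 in 9 of 10, Ifi205 in 6 of 6, Ifi204 in 11 of 15 and Ifi213 in 8 of 11, against 4 of 15 for Ifi203, 5 of 13 for Ifi209, 4 of 14 for Mndal and 0 of 13 for Aim2. Comparisons of 1 tissue draw on the same pair of libraries, so these are not independent counts.

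**Figure D4:**
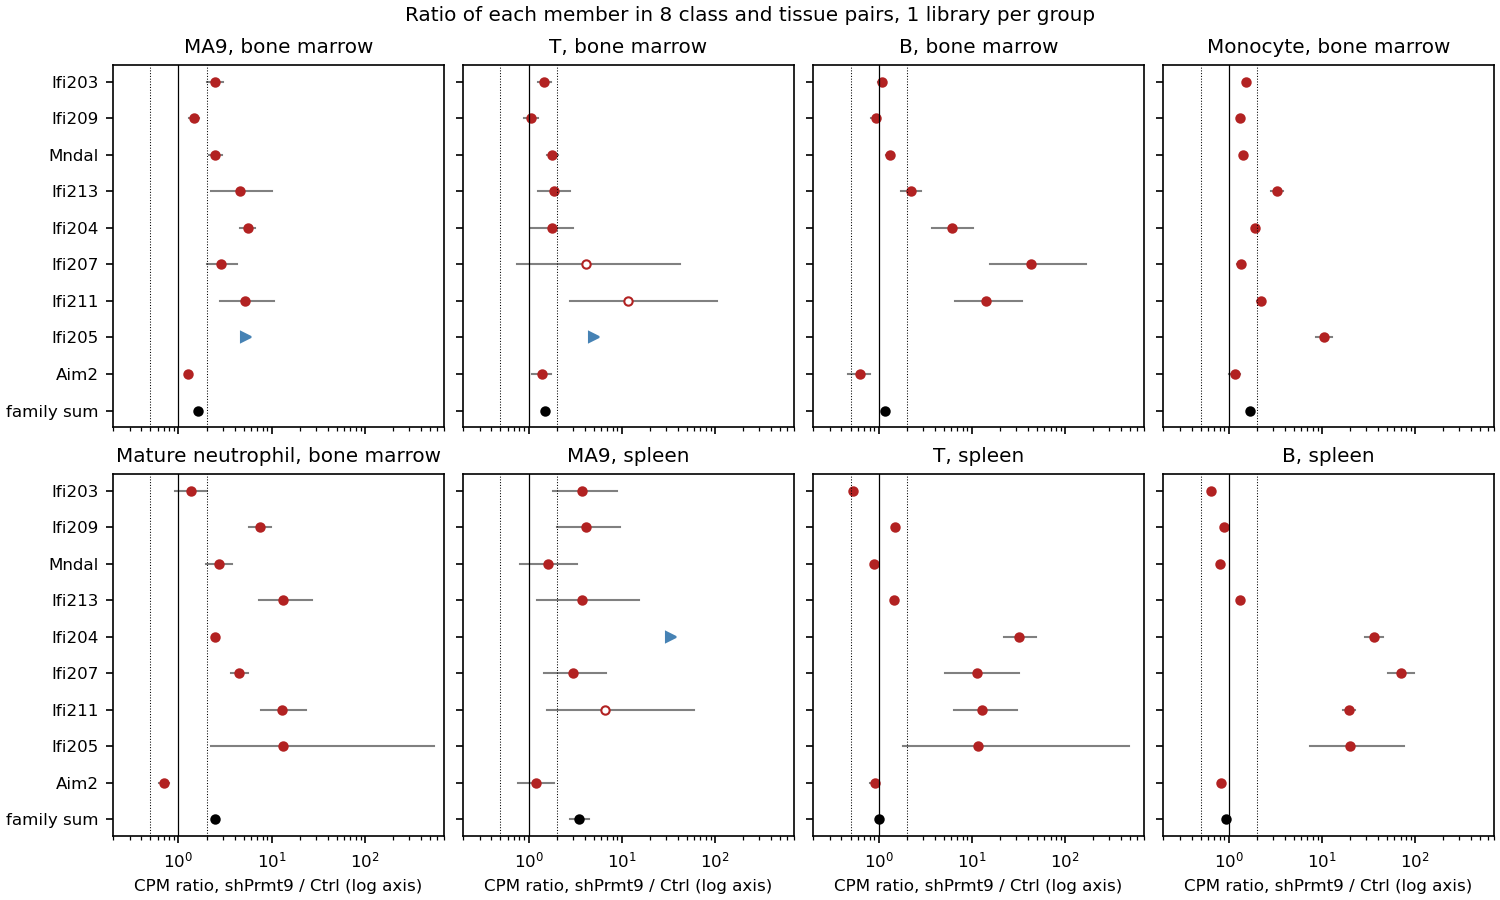
Points give the shPrmt9 over Ctrl ratio of CPM (log axis) of each member and of the family sum (black) in 8 class and tissue pairs, with exact 95% intervals for counting error, open points for members under 20 UMIs, triangles for lower bounds where Ctrl had no UMI, and dotted lines at 2-fold. In spleen T and B cells Ifi204, Ifi207, Ifi211 and Ifi205 sit above 10 while Ifi203, Mndal and Aim2 sit below 1.

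Ifi204 differed widely in spleen lymphocytes. In spleen B cells it went from 89 UMIs in Spleen-Ctrl to 2131 in Spleen-shPrmt9, or 1.66 to 60.3 CPM, a ratio of 36.4 (29.4–45.5). In spleen T cells it went from 28 to 1472 UMIs, or 1.58 to 50.9 CPM, a ratio of 32.1 (22.1–48.5), and in NK cells from 2 to 183 UMIs (71.3, 19.5–593). All 3 lymphocyte classes of the control spleen were thus close to empty of it. The level of free RNA, estimated from the markers of other lineages found in the same cells, was 2.19 CPM in T cells and 3.02 CPM in B cells of Spleen-shPrmt9, 4.31% and 5.0% of the values there. The B cells of the 2 spleen libraries differed in depth, with a median of 6519 and 17052 UMIs. Among T cells the ratio was 11.7 (6.04–25.8) in those with Cd4 (9 and 222 UMIs) and 53.4 (31.1–101) in those with Cd8a or Cd8b1 (13 and 982 UMIs), and these intervals do not overlap.

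Myeloid cells, which held Ifi204 already in Ctrl, differed by less. Mature neutrophils of bone marrow held 3181 UMIs in BM-Ctrl and 16779 in BM-shPrmt9, 233 and 569.6 CPM, a ratio of 2.44 (2.35–2.54). The ratio was 1.92 (1.81–2.04) in bone marrow monocytes (157 and 302 CPM), 4.47 (3.81–5.27) in immature neutrophils (16.4 and 73.1 CPM) and 1.78 (1.39–2.30) in the 33 and 66 mature neutrophils of spleen (473 and 840.4 CPM). In T and B cells of bone marrow the ratio was 1.77 (1.06–2.98) and 6.18 (3.72–10.4) on 29 to 39 UMIs per library. The bone marrow B cells of BM-Ctrl, at 4.13 CPM, were at or under the level set by free RNA (5.0 CPM), for that class.

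In MA9 cells of bone marrow Ifi204 was counted at 128 and 702 UMIs, 1.5 and 8.24 CPM (5.51, 4.56–6.70), but the estimated level of free RNA was 1.5 CPM in BM-Ctrl and 5.64 CPM in BM-shPrmt9, which is 68.4% of the value there. Mature neutrophils, which hold most of the transcript, were the abundant class in both libraries. Without the Xist-holding cells the ratio was 4.24. In the spleen, 0 UMIs in 32 MA9 cells of Spleen-Ctrl stood against 123 UMIs in 51 cells of Spleen-shPrmt9 (84.2 CPM), at least 34.0-fold higher against a floor of 3 counts per library, and the free RNA level of Spleen-shPrmt9 was 0.900 CPM.

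Shares of cells with a UMI were compared after each cell was thinned to 3000 UMIs, because depth differed between classes and libraries. Ifi204 was then seen in 39.6% of mature neutrophils of BM-Ctrl and 74.4% of those of BM-shPrmt9 (46.7% and 88.7% before thinning, with 1108 and 267 shallower cells left out). In spleen T cells the share was 0.353% and 9.63% (0.900% and 20.7% before thinning), and in spleen B cells 0.234% and 14.2% (0.85% and 40.2%). Erythroid cells, taken as background, gave 0.714% and 0.667% in spleen, so the shPrmt9 shares of T and B cells were above that background and the Ctrl shares were below it. In bone marrow the erythroid shares were 1.05% and 3.27%, and those of MA9 cells, 0.696% and 2.40% (5.83% and 20.5% before thinning at a median of 58108 and 52766 UMIs), were under them. The erythroid cells of BM-shPrmt9 held Ifi204 at 21.9 CPM against a free RNA level of 8.00 CPM, so that they lack it is an assumption, and the shares of bone marrow MA9 cells are read only as not above theirs at this depth.

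**Figure D5:**
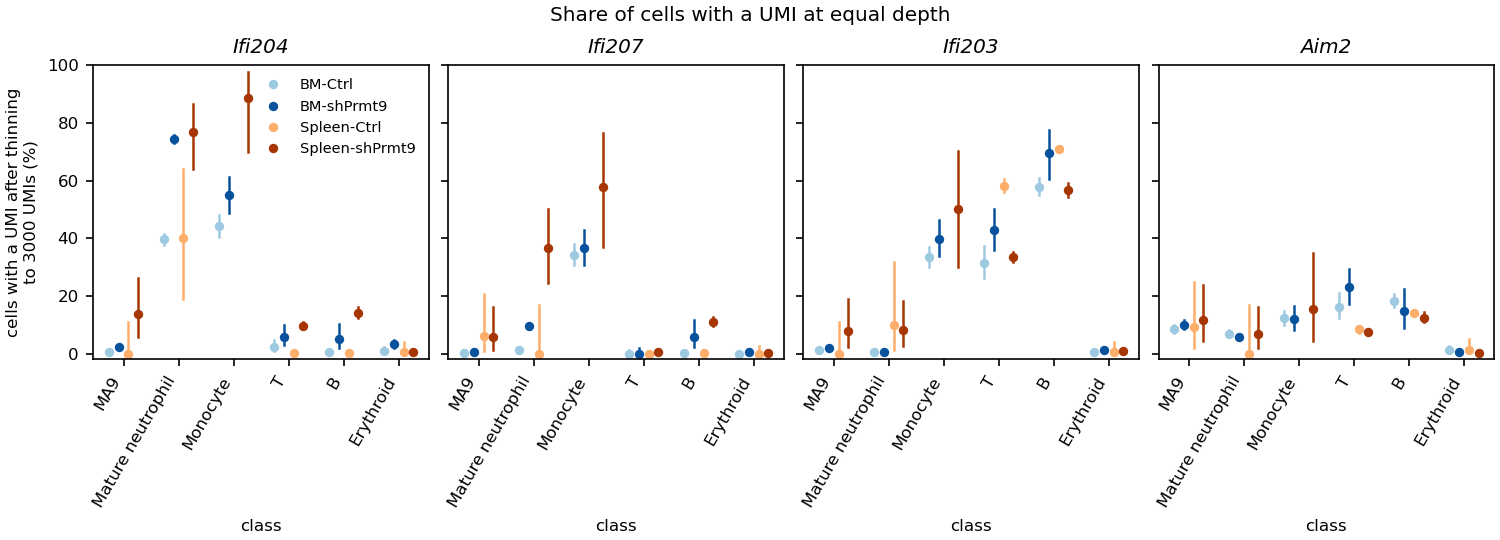
Points give the share of cells with at least 1 UMI of Ifi204, Ifi207, Ifi203 or Aim2 (panels) after thinning to 3000 UMIs (y axis, %), by class and library (colours), with exact 95% binomial intervals. Ifi204 and Ifi207 are higher in Spleen-shPrmt9 than Spleen-Ctrl in B cells (14.2% against 0.234% for Ifi204), Ifi203 is lower in spleen T cells (33.6% against 58.3%), and Aim2 differs little in MA9 cells (10.0% against 8.56% in bone marrow).

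Ifi207 and Ifi211 followed Ifi204 in B cells. In the spleen Ifi207 went from 42 to 1943 UMIs, 0.782 to 55.0 CPM, a ratio of 70.3 (51.8–97.9), and was seen in 0.167% and 11.0% of thinned cells. Ifi211 went from 186 to 2370 UMIs, 3.46 to 67.1 CPM (19.4, 16.7–22.6). Both were far less abundant in spleen T cells of shPrmt9, at 3.90 and 5.87 CPM, where the ratios were 11.5 (5.13–32.0, 6 and 113 UMIs) and 13 (6.44–30.6, 8 and 170 UMIs). Bone marrow B cells held few UMIs, with a ratio of 43.7 (15.7–168) for Ifi207 (4 and 38 UMIs) and 14.3 (6.56–34.4) for Ifi211 (9 and 28 UMIs). All 38 and all 28 lay in the 116 Xist-holding B cells of BM-shPrmt9, and the 11 others had 0 of either gene, which allows up to 44.3 CPM. In BM-Ctrl the free RNA level was 295% of the Ifi207 value (1.68 against 0.570 CPM) and 81.4% of the Ifi211 value.

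Myeloid cells held both genes in Ctrl too. In bone marrow monocytes Ifi207 was at 114 and 153 CPM (1.35, 1.24–1.46) and Ifi211 at 77.1 and 171 CPM (2.22, 2.03–2.41). Mature neutrophils had 7.26 and 32.7 CPM of Ifi207 (4.51, 3.66–5.60) and 1.10 and 14.2 CPM of Ifi211 (12.9, 7.73–23.2) and the free RNA level of BM-Ctrl was 94.2% of its Ifi211 value (1.04 of 1.10 CPM). The counts of Ifi211 share transcript-end sequence with Ifi205 and Mndal. In MA9 cells of bone marrow both were rare, with 41 and 118 UMIs of Ifi207 (2.89, 2.01–4.23) and 12 and 62 of Ifi211 (5.19, 2.77–10.6). The free RNA level was 105% and 223% of the values in BM-Ctrl and 46.9% and 74.1% of those in BM-shPrmt9. Without the Xist-holding cells those ratios were 1.52 and 3.73.

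Ifi205 was the rarest member and largely a monocyte gene. Bone marrow monocytes held 134 UMIs in BM-Ctrl and 557 in BM-shPrmt9, 8.99 and 94.7 CPM, a ratio of 10.5 (8.72–12.8), the largest among the members in that class. The 26 monocytes of Spleen-shPrmt9 held it at 341 CPM (284–405). Elsewhere it was rare in Ctrl: spleen B cells had 4 and 53 UMIs (20.1, 7.42–76.7), spleen T cells 1 and 19, mature neutrophils of bone marrow 1 and 29, and bone marrow B cells 0 in both libraries. In MA9 cells of bone marrow it had 0 and 16 UMIs, and the 0.188 CPM of BM-shPrmt9 lay under the free RNA level of 0.236 CPM.

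Monocytes of bone marrow were the class in which leaving out the Xist-holding cells of BM-shPrmt9 reversed the direction of the family ratio. Of 275 monocytes in BM-shPrmt9, 238 held an Xist UMI and summed to 1498 CPM (1465–1532) over the family, and 37 held none and summed to 658 CPM (599–722), below the 818 CPM of BM-Ctrl. Without the Xist-holding cells the family ratio was 0.805 instead of 1.71 (1.67–1.76), and Ifi203, Ifi207, Ifi209, Ifi211, Ifi213 and Mndal lay below 1, at 0.412 to 0.699. The ratio was 8.19 for Ifi205, 1.27 for Ifi204 and 1.32 for Aim2. The 37 cells were also the shallower ones, with a median of 13455 UMIs against 18254. In mature neutrophils the family sum was 741 CPM in the 2706 cells without and 638 CPM in the 1828 cells with an Xist UMI, so there the ratio to Ctrl was not lower without them (2.63 against 2.46).

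Ifi203, Mndal and Ifi209 were the abundant members of lymphocytes. In spleen B cells Ifi203 was lower in shPrmt9, with 25097 and 10677 UMIs, 467 and 302 CPM, a ratio of 0.647 (0.632–0.662). Spleen T cells had 314 and 167 CPM (0.530, 0.510–0.551), and the ratio was 0.543 in Cd4 cells and 0.504 in Cd8 cells. The thinned share of cells with Ifi203 moved the same way, from 58.3% to 33.6% of T cells and from 71.0% to 56.8% of B cells. Mndal was lower by less, at 423 and 345 CPM in spleen B cells (0.816, 0.798–0.834) and 249.6 and 225 CPM in spleen T cells (0.902, 0.868–0.937).

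In bone marrow the values of both genes were above those of Ctrl in T cells, and in B cells the interval of Ifi203 spanned 1. T cells had 119 and 176 CPM of Ifi203 (1.48, 1.25–1.75) and 159 and 287 CPM of Mndal (1.80, 1.57–2.07). B cells had 312 and 341 CPM of Ifi203 (1.09, 0.992–1.2) and 290.1 and 384 CPM of Mndal (1.32, 1.2–1.45). The difference between tissues was not tested, and the tissues also differ in sex-linked RNA. NK cells of the spleen departed from the T and B cells beside them, with Ifi203 at 29.5 and 75.7 CPM (2.56, 1.70–3.97) and Mndal at 108 and 188 CPM (1.74, 1.39–2.20). In MA9 cells of bone marrow Ifi203 had 138 and 338 UMIs (2.46, 2.01–3.02) and Mndal 212 and 525 UMIs (2.49, 2.12–2.93), and the ratios were 1.14 and 1.78 without the Xist-holding cells.

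Ifi209 was close to equal in B cells, at 264 and 234 CPM in spleen (0.886, 0.862–0.910) and 274 and 255 CPM in bone marrow (0.930, 0.832–1.04). The spleen value lay above 1 with DESeq2 size factors (1.02). Spleen T cells had 197 and 296 CPM (1.5, 1.44–1.56), made up of a ratio of 1.98 (1.88–2.08) in Cd8 cells and 1.03 in Cd4 cells. Ratios were higher in mature neutrophils of bone marrow, at 58 and 935 UMIs, 4.26 and 31.7 CPM (7.46, 5.72–9.90), and in spleen NK cells, at 40 and 266 UMIs (5.18, 3.71–7.42). The mature neutrophil value of BM-Ctrl was under the free RNA level of 4.80 CPM. Part of the transcript-end sequence of Ifi209 is shared with Ifi214, which was also higher in spleen T cells of shPrmt9, at 127 and 256 CPM.

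Ifi213 was higher in shPrmt9 in all 11 comparisons with at least 20 UMIs, from 1.34 (1.27–1.41) in spleen B cells (60.5 and 80.8 CPM) to 32.7 (5.72–1307) in immature neutrophils, where BM-Ctrl had 1 UMI. Mature neutrophils of bone marrow had 11 and 318 UMIs (13.4, 7.38–27.1), monocytes 19.2 and 63.6 CPM (3.31, 2.83–3.87) and B cells of bone marrow 29.9 and 67.4 CPM (2.25, 1.76–2.87). It was thus above 1 in T and B cells of both tissues. Without the Xist-holding cells the monocyte ratio was 0.689.

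Aim2, the inflammasome sensor, differed least. Over the 13 comparisons with at least 20 UMIs its ratio ran from 0.491 in spleen erythroid cells to 1.78 in immature neutrophils with a median of 0.914, whereas the median was 5.22 for Ifi204 and 12.9 for Ifi211. The value of 0.491 rests on 4 and 21 UMIs, and its interval (0.166–1.97) spans 1. In MA9 cells of bone marrow it had 2316 and 2922 UMIs, 27.1 and 34.3 CPM (1.27, 1.2–1.34), with 73.0% and 73.9% of cells holding a UMI and 1.25 as the ratio without the Xist-holding cells. In the spleen it was at 50.8 and 41.8 CPM in B cells (0.822, 0.771–0.877), 30.7 and 28.1 CPM in T cells (0.914, 0.819–1.02) and 30.5 and 36.3 CPM in MA9 cells (1.19, 0.767–1.86). It was lower in mature neutrophils of bone marrow, at 28.8 and 20.2 CPM (0.702, 0.617–0.80), where the ratio was 0.854 with TMM factors, and in bone marrow B cells, at 63.8 and 39.9 CPM (0.626, 0.471–0.819). T cells of bone marrow had 63.3 and 87.8 CPM (1.39, 1.10–1.75).

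For the family as a whole, bone marrow mature neutrophils (282 and 694 CPM, 2.46, 2.38–2.55), monocytes (1.71), MA9 cells (38.0 and 62.3 CPM, 1.64, 1.57–1.71), T cells (520.3 and 783 CPM, 1.5, 1.39–1.63) and B cells (976 and 1155 CPM, 1.18, 1.12–1.25) were all higher in shPrmt9 with all cells kept. Without the Xist-holding cells of BM-shPrmt9 the monocyte ratio fell below 1, to 0.805. The others were then 2.63 in mature neutrophils, 1.42 in MA9 cells, 1.45 in T cells and 1.12 in B cells. In spleen the sum was nearly level in T cells, at 842 and 847 CPM (1.01, 0.986–1.03), and B cells, at 1271 and 1188 CPM (0.934, 0.923–0.946), with the abundant Ifi203 and Mndal lower and the scarce members higher. The B cell value lay above 1 with TMM factors (1.04) and with DESeq2 size factors (1.07). Scaling moved the ratios of that class by 0.16 on the log2 scale with TMM. Spleen NK cells had 246 and 701 CPM (2.85, 2.48–3.28). The 32 and 51 spleen MA9 cells had 70.1 and 246 CPM (3.51, 2.76–4.49), but 39.0% of the Ifi203 UMIs of Spleen-shPrmt9 came from 1 cell and with a stricter gate (17 and 45 cells) the family ratio was 1.93 and that of Ifi203 was 0.472.

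The other genes of the pathway were read from fixed lists by the same 2-fold count. Of 42 listed interferon-stimulated genes outside the family, such as Ifitm3 and Ifi27l2a, 40 were in the matrices. Of these, 33 of 40 were higher in bone marrow MA9 cells (12.4% of all genes), 35 of 40 in mature neutrophils (4.37%) and 33 of 40 in monocytes (6.64%). In spleen, 23 of 40 were higher in T cells (5.80%) and 25 of 40 in B cells (5.33%). The median log2 ratios, in that order, were 1.67, 2.24, 1.47, 1.25 and 1.25. The medians of the family in the same classes were 1.42, 2.17, 0.63, 0.59 and 0.42. Of 10 listed genes of DNA sensing outside the family, 9 were in the matrices. At least 2-fold higher were 2 of 8 with enough UMIs in bone marrow MA9 cells (12.4% of all genes) and 2 of 7 in mature neutrophils (4.37%). In spleen T cells 0 of 8 were higher (5.80%) and 1 lower (8.57%), and in spleen B cells 0 of 8 were higher (5.33%) and 2 lower (13.3%). The median log2 ratio of this list was 0.62 in MA9 cells and 0.22 in mature neutrophils of bone marrow. It was 0.18 in spleen T cells and -0.16 in spleen B cells. Zbp1, a sensor of Z-form nucleic acid, is the only gene of the list given with values here. It had a ratio of 3.61 in MA9 cells, 3.45 in mature neutrophils, 1.42 in spleen T cells and 1.63 in spleen B cells.

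The partners of Aim2 in the inflammasome were counted in the same way. Of 12 such genes, 4 of 11 with enough UMIs were at least 2-fold higher in bone marrow MA9 cells (12.4% of all genes) and 2 of 10 in mature neutrophils (4.37%), with median log2 ratios of 0.65 and 0.13. In spleen T cells 1 of 8 was higher (5.80%) and 2 lower (8.57%), and in spleen B cells 1 of 11 was higher (5.33%) and 2 lower (13.3%), with medians of -0.27 and -0.40. Pycard, the adaptor that Aim2 recruits, was at 239 and 258 CPM in MA9 cells (1.08, 1.06–1.10) and had ratios of 0.441 in spleen T cells and 0.697 in spleen B cells. Casp1 had a ratio of 1.04 (0.994–1.08) in MA9 cells and Gsdmd one of 1.30 (1.26–1.35), while Il1b, the cytokine the complex matures, was at 2.91 and 8.78 CPM (3.02, 2.61–3.5). Il1b was also a check marker of mature neutrophils, the abundant class in both libraries. The level of free RNA was not estimated for genes outside the family, so its part in the Il1b values of MA9 cells is not known.

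The neighbours in the cluster that are not members also differed by class. The level of free RNA was not estimated for these neighbours. Ifi206 was at 15 and 142 UMIs in bone marrow MA9 cells (9.51, 5.57–17.4) and at 2.49 and 24.4 CPM in mature neutrophils (9.77). Ifi208 was at 2.57 and 18.7 CPM in mature neutrophils (7.29), but at 44.1 and 7.57 CPM in spleen T cells (0.172, 0.147–0.20) and at 5.79 and 1.81 CPM in spleen B cells (0.313). One cluster thus held genes that were higher and genes that were lower in the same cells.

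Likeness of pattern was measured by Pearson's correlation of log2(CPM + 1) across the 25 class and library sums of at least 100 cells, which share libraries and depth, and is given as a description. Ifi203 and Mndal, which overlap in the genome, were most alike (0.98), followed by Ifi209 with Mndal (0.96) and Ifi203 (0.94). Ifi207 and Ifi211 formed another pair (0.89), each being the other's nearest gene of 13014. Ifi204 was little like Ifi203 (0.03) and Mndal (0.10), and its nearest gene was Acod1 (0.92), which makes itaconate in activated myeloid cells. Aim2 was nearest to Vps39 (0.95), and no other member was among its 5 nearest genes, while the family sum was nearest to Clec2d (0.94) and Slfn8 (0.93).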

How the data were processed

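The authors sequenced 3′ libraries made with the 10x Genomics Chromium system from BM and spleen cells and deposited matrices of raw UMI counts, genes by barcodes, made with Cell Ranger against mm10. The version was 6.0.2 per the file headers and 6.1.1 in the submitters' processing notes. The other deposited columns hold barcodes and gene names. The labels put 1 library in each of 4 groups, so no p-value was computed.

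Barcodes with fewer than 200 genes or over 20% mitochondrial UMIs were dropped (kept: 8065 to 11174 per library, median 6668 to 10548 UMIs). A cell joined a class when it held at least 2 of its gate markers and their UMIs passed a set share of its total. Cells meeting several gates, which include most doublets between classes, were left out, and no doublet caller or clustering was run. The gates were set after the counts were seen. The members and all gene lists were chosen with earlier results of these data known.

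UMIs were summed per class and library and scaled to CPM. Levels have exact Poisson intervals, ratios exact conditional binomial (Clopper-Pearson) intervals and shares exact binomial intervals, at 95%, and all cover counting error only. Where 1 library had no UMI, the other was set against a floor of 3 counts. Granule progenitors were not compared between BM libraries (median 44908 against 2360 UMIs). The level of free RNA was the lowest of the ratios of erythroid, B or mature neutrophil markers in a class to their level in the library, times the library level of a member. That the lowest was taken was decided after values were seen. The choice matters: in MA9 cells of BM-shPrmt9 the ratio was 4.51% by erythroid markers and 44.7% by B cell markers. The free RNA levels given are thus the lowest of the estimates. The marker set could differ between the libraries of a pair, as in bone marrow B cells (mature neutrophil markers in BM-Ctrl, erythroid markers in BM-shPrmt9). Named genes are all 9 members, genes of the fixed lists (other genes of the cluster, inflammasome, DNA sensing, interferon-stimulated), Prmt9, the sex-linked genes, and the 5 genes most like each member. Alternatives were TMM factors (edgeR 4.0.16), DESeq2 1.42.0 size factors, the mean over cells, other gates, mixed cells kept, free RNA subtracted, the top cell left out, other minimum counts and fold, other thinning, and, added after seeing the data, BM-shPrmt9 cells with an Xist UMI left out. For levels, a total without mitochondrial, ribosomal protein, globin and immunoglobulin genes was also used. Scripts ran in Python 3.11.15 with numpy 2.4.6, scipy 1.17.1 and pandas 2.3.3, were tested on simulated data, and drew positions from GENCODE and promoters from RefSeq tables of GRCm38.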

Additional observations from a re-analysis of the deposited data

Results flagged for a closer look

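In 6 results the counting intervals of the shPrmt9 over Ctrl ratio lay on opposite sides of 1 in the 2 tissues, among 5 classes compared in both (MA9, T, B, mature neutrophil and erythroid cells). The difference between tissues was not tested, since each ratio rests on 1 library per group, and the tissues also differ in sex-linked RNA, whose part in the result was not tested. Ifi203 in T cells had a ratio of 1.48 in bone marrow and 0.530 in spleen. Mndal in T cells had 1.80 and 0.902, and in B cells 1.32 and 0.816. The family sum in B cells had 1.18 in bone marrow and 0.934 in spleen, and the spleen value turned above 1 under other scalings. In erythroid cells Ifi203 had 4.37 and 0.374, and Mndal 15.7 and 0.473. The estimated level of free RNA was 84.1% or more of the erythroid value of these 2 genes in 3 libraries, and in BM-shPrmt9 it was 19.8% of that of Ifi203 and 21.1% of that of Mndal. Mndal and Ifi203 overlap on the same strand, so their results are not separate observations.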

How the results depend on the processing

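No paired analysis was possible because each group is 1 library and the labels give no replicate numbers, and for the same reason no replicate could be left out. Of the alternatives to a member ratio, 733 kept the direction and lay within the counting interval, 96 moved beyond it and 11 turned to the other side of 1. For the family sum ratio the numbers were 86, 33 and 5. Of the alternatives to the family level of a class and library, 125 were unmoved and 103 moved. With mitochondrial, ribosomal protein, globin and immunoglobulin genes left out of the total, 35 levels moved and 3 did not. Except where a sentence says otherwise, the cause of a change was not tested.

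TMM factors shifted all ratios of a class by -0.34 to 0.58 on the log2 scale, by 0.28 in BM mature neutrophils, where the family ratio was 2.99 (2.95 with DESeq2 size factors). In spleen it was 1.04 in B cells and 1.06 in T cells with TMM factors, and 1.07 in both with DESeq2, which gave 1.77 in BM monocytes and 1.02 for Ifi209 in spleen B cells. The mean over cells gave 1.54 in MA9 cells of BM, 1.30 in BM B cells, 1.39 in monocytes, 2.37 in mature neutrophils, 2.61 in spleen MA9 cells, 0.962 in spleen T cells and 1.05 in spleen B cells, with 3 members at least 2-fold higher in BM MA9 cells and 1 in BM T cells. It gave 1.02 for Ifi209 in spleen B cells and 1.05 for Mndal in spleen erythroid cells.

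A stricter gate gave family ratios of 1.77 in monocytes, 2.57 in mature neutrophils, 1.93 in spleen MA9 cells and 1.06 in spleen B cells. In spleen MA9 cells (17 and 45 cells) Ifi203 was then 0.472, with 2 members higher and 2 lower, and Ifi209 in spleen B cells was 1.05. A looser gate gave 1.77 in monocytes and 0.898 in spleen B cells. With mixed cells kept the ratios were 1.76 in BM MA9 cells, 1.82 in monocytes and 0.981 in spleen T cells. Subtracting free RNA gave 2.62 in mature neutrophils and 0.951 in spleen B cells. In BM T cells 1 member was at least 2-fold higher with the stricter gate, with mixed cells kept or without Xist-holding cells, and 3 were with no minimum on UMIs or at 1.5-fold. At 1.5-fold, 5 were higher in monocytes, and 1 was lower in each of BM B, spleen T and spleen B cells. With at least 50 UMIs, 2 were higher in BM B cells and 3 in spleen MA9 cells.

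Without the Xist-holding cells of BM-shPrmt9 the family ratio was 1.42 in MA9 cells, 1.12 in B cells, 2.63 in mature neutrophils and 0.805 in monocytes. In monocytes Ifi203 was 0.412, Ifi207 0.699, Ifi209 0.580, Ifi211 0.592, Ifi213 0.689 and Mndal 0.421, with 1 member higher and 2 lower. In MA9 cells 2 members were higher. In B cells 2 were higher and 2 lower, but only 11 B cells were left (median 5707 UMIs) and the lower ones, Ifi207 and Ifi211, had 0 UMIs there, which allows up to 44.3 CPM each, so no direction is read from them. With 1 library per group, differences between animals, libraries and hairpins cannot be told apart, and members under 20 UMIs in a pair of libraries carry wide counting intervals.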

Other observations

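Some classes held enough cells in a single library of a tissue and entered no comparison. The 128 plasmacytoid DC of BM-Ctrl, the interferon-producing dendritic cells, held Ifi203 and Mndal at 324 CPM each (295–355), with intervals that overlapped those of BM-Ctrl B cells (312 and 290.1 CPM), and with Ifi207 at 52.3 CPM (41.0–65.8) but Ifi204 at 12.9 CPM (7.64–20.4). The 33 megakaryocytes of BM-shPrmt9, which make platelets, held Mndal at 129 CPM (108–153) and Ifi203 at 94.1 CPM (76.3–115), while Ifi209 and Ifi207 had 1 UMI each and Ifi205, Ifi211 and Ifi213 had 0. Of their family UMIs, Mndal and Ifi203 made up 54.7% and 39.9%.

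The 38 plasma cells of Spleen-shPrmt9 held 0 UMIs of Aim2, which allows a level of up to 4.42 CPM, while B cells of that library held it at 41.8 CPM. Their Ifi204 was at 67.1 CPM (50.7–87.1) and their Ifi211 at 63.5 CPM (47.6–83.1), beside 60.3 and 67.1 CPM in those B cells. The 26 spleen monocytes of the same library held Ifi204 at 687 CPM (605–776), Ifi209 at 462 CPM (395–536), and Ifi207 and Ifi211 at 370.3 CPM each (311–438). The Cx3cr1 check marker was at 0 in these monocytes.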
